A study of Homo sapiens with 4 samples.

Results

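The genes described are HIF1A, which encodes the oxygen-regulated subunit of hypoxia-inducible factor, and 9 genes known to be induced by it: VEGFA, ADM, NDRG1, BNIP3, EGLN3, CA9, P4HA1, ANKRD37 and KDM3A. They were taken by symbol from the deposited expression table, in which each of the 10 matched 1 row of 63651. RNA was sequenced from BJ-5ta, a foreskin fibroblast line immortalised with telomerase, in a clonal derivative whose doxycycline-inducible transgene encodes FOXA2, a forkhead factor of endoderm and liver. The labels give 2 induced samples, with doxycycline at 0.5 µg/ml, and 2 uninduced samples without it. All were the same transgenic line, grown in MEM-Alpha with 10% serum, bFGF at 5 ng/ml, hygromycin B at 0.01 mg/ml and puromycin at 0.5 µg/ml. The protocol also names overnight mimosine at 200 µM, which holds cells in G1, and does not say which cultures received it. No doxycycline-treated line without the transgene was used here, so induction and drug exposure cannot be told apart. The table holds 1 FPKM value per gene and group, with a deposited lower and upper confidence bound, and no value per sample, so no difference below has a replicate check and none carries a p-value. FPKM is a level corrected for transcript length and for the number of mapped fragments.

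When oxygen and iron are available, the prolyl hydroxylases EGLN1, EGLN2 and EGLN3 modify the HIF1A protein, and the VHL ubiquitin ligase then marks it for destruction. Under hypoxia, or when iron is chelated, the protein accumulates, pairs with ARNT and binds hypoxia response elements of its target genes, so its control lies mainly in protein stability rather than in its own mRNA. Mimosine is a plant amino acid that chelates iron. Protein was not measured here, and the mRNA of the target genes is the readout that the data hold.

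The hypoxia response element has the core ACGTG or GCGTG, and the windows below are shown because they hold the more restrictive ACGTG core in members with very unequal expression. Promoters were those of RefSeq on GRCh38.p14, 250 bases before to 50 bases after each annotated start, and they matched 8 of the 10 members, all but VEGFA and NDRG1. Both strands were searched, and the palindrome CACGTG holds ACGTG on each strand. The core ACGTG was found in 4 of the 8, BNIP3, CA9, P4HA1 and ANKRD37, and 7 of the 8 held either core, all but EGLN3. Each line below runs in the direction of the gene, with a core on either strand in capitals.
BNIP3, chr10:131982022-131982087, minus strand: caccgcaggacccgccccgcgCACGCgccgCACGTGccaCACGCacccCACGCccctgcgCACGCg
CA9, chr9:35673880-35673944, plus strand: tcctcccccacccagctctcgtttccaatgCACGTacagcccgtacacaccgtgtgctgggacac
P4HA1, chr10:73096918-73096982, minus strand: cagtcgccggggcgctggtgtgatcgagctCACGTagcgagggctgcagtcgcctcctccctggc
ANKRD37, chr4:185396649-185396732, plus strand: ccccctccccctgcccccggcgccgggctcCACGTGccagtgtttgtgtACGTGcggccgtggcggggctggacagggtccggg

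The BNIP3 window ran from base -164 to base -99 relative to the start, and held 2 overlapping ACGTG matches in a palindrome and 4 GCGTG matches. The CA9 match lay at -18 to -14, the P4HA1 match at -86 to -82, and ANKRD37 had 3 matches between -162 and -139. HIF1A had 1 GCGTG match at -204 to -200 of 1 of its 2 annotated starts, ADM had 1 at -101 to -97, and the single GCGTG site of KDM3A lay at -26 or -116, depending on which of its 2 starts is counted. Such short cores are frequent: of 35116 promoters of this length in the table, 21.4% held ACGTG, 36.5% GCGTG and 48.45% either. These shares are per promoter, while the members were counted per gene, with a match in any promoter of the gene sufficing. Counted per gene in the same way, 6611 of the genes expressed here held either core and 2747 held neither. Of the genes expressed here, 3065 with ACGTG had a median log2 difference, induced minus uninduced, of 0.0056, and 6293 without it had one of 0.037. The forkhead motifs TGTTTAC and TGTTTGC, which FOXA factors can bind, were in 0 of the 8 members' promoters and in 7.17% of all promoters. These matches describe letters in a window, and binding was not measured.

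**Figure D1:**
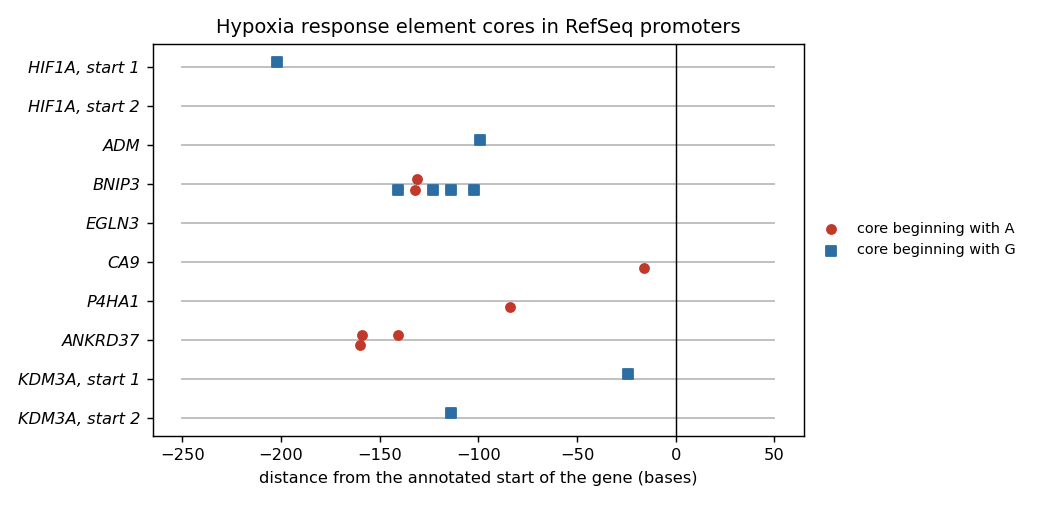
Positions of hypoxia response element cores in the RefSeq promoters of 8 members. The horizontal axis is the distance in bases from the annotated start, each grey line is 1 promoter, circles are ACGTG and squares GCGTG, and marks above and below a line are on the plus and minus strand of the gene. The marks of BNIP3 cluster between -143 and -100, and EGLN3 and the second start of HIF1A have none.

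The levels of the members spanned from abundant to listed at 0, in nearly the same order in both columns. In the induced column the order was HIF1A, P4HA1, ADM, BNIP3, VEGFA, NDRG1, KDM3A, ANKRD37, CA9 and EGLN3. The uninduced order differed only in the place of BNIP3, which came above HIF1A there. No 2 neighbours in either order had separate intervals, since 0 of 9 neighbouring pairs were apart. Of all 45 pairs, 23 had separate intervals in the induced column and 26 in the uninduced column. HIF1A, P4HA1, ADM and BNIP3 had intervals above those of KDM3A, ANKRD37, CA9 and EGLN3 in both columns. The promoters with ACGTG belong to genes at both ends of this order: P4HA1 and BNIP3 near the top, CA9 and ANKRD37 near the bottom.

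**Figure D2:**
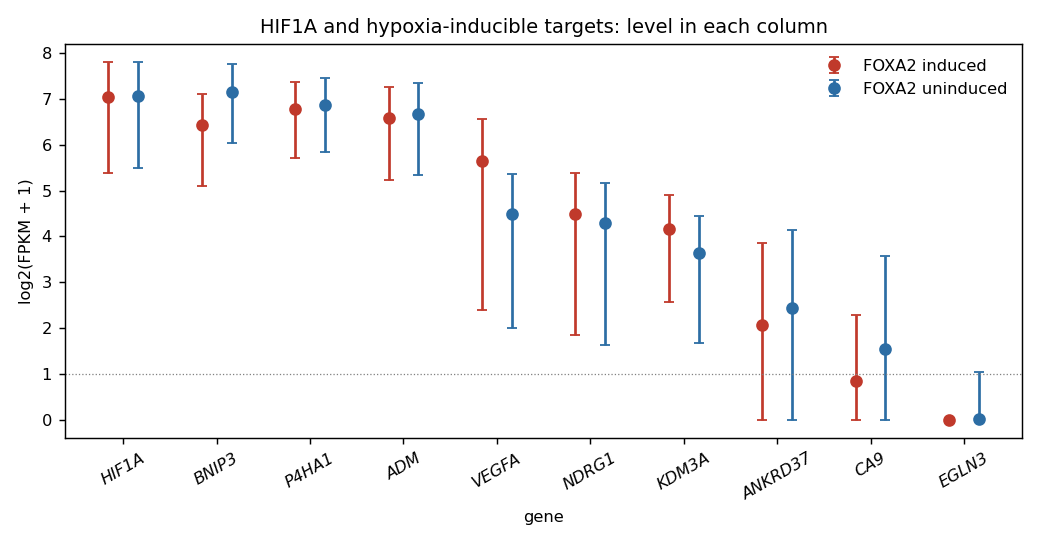
Level of each member on the log2(FPKM + 1) scale in the FOXA2-induced (left of each pair) and uninduced column. Points are the deposited FPKM values, bars the deposited confidence bounds, and the dotted line marks 1 FPKM. The bars of the 2 columns overlap for each of the 10 genes, and the widest gap between points is that of VEGFA.

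The comparison of induced with uninduced cells asked whether the hypoxia programme differed when FOXA2 was switched on. The words rose and fell are used of genes whose 2 deposited intervals did not overlap, and 14319 genes reached 1 FPKM in at least 1 column and were kept. Of the 10 members 9 were kept, EGLN3 being under this filter, and 0 rose and 0 fell. Over all kept genes 0.726% rose and 0.454% fell, and 0 of 9 is near that background. By a looser criterion, that an interval for the FPKM difference (margins of both columns combined in quadrature) leaves out 0, 0 members were higher and 0 lower, against 1.26% and 1.11% of all kept genes. On log2 of FPKM plus 1, 1 member was 2-fold or more higher, VEGFA, and 0 were as far lower, against 9.20% higher and 6.03% lower among all kept genes. The log2 differences, induced minus uninduced, had a median of -0.094 over the 9 kept members and of 0.054 over all kept genes. Of the 9, 3 lay above 0 and 6 below, and 4 were within 0.25 of 0, as were 32.3% of all kept genes.

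HIF1A itself (ENSG00000100644, chromosome 14, 62147759 to 62263146 in hg19, the table's locus span) was among the more abundant transcripts. It was at 131 FPKM (interval 40.9 to 222) in the induced column and at 134 FPKM (44.3 to 223) in the uninduced column. The log2 difference was -0.024, and the intervals overlapped almost entirely. The level exceeded that of 95.9% of kept genes in the induced and 94.9% in the uninduced column. The bounds still leave room for a ratio between 0.183 and 5.01, the extremes that the nearest and farthest bounds allow, so equal mRNA was not shown. The same locus span is listed for 4 other genes. Of these, RP11-618G20.1, annotated as overlapping HIF1A on the same strand, was at 8.61 FPKM induced and 5.84 FPKM uninduced. Its part in the HIF1A value was not tested.

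Of the secreted products, VEGFA had the largest difference and ADM hardly any. VEGFA, the main growth factor for blood vessels (chromosome 6, 43737921 to 43754224), was at 48.8 FPKM (interval 4.25 to 93.4) induced and 21.5 FPKM (2.98 to 40.1) uninduced. The ratio was 2.27 and the log2 difference 1.15, higher than in 93.4% of kept genes, but the intervals overlapped over nearly the whole uninduced range. The difference of 27.3 FPKM had an interval of -21.0 to 75.6. The same locus span is listed for RP1-261G23.7, annotated as an antisense gene that overlaps VEGFA on the opposite strand, at 48.5 FPKM (0 to 259) induced and 14.6 FPKM uninduced. The libraries do not keep strand, so reads of this pair cannot be told apart, and the part of the antisense gene in the VEGFA value was not tested. ADM, or adrenomedullin, a vasodilator peptide (chromosome 11, 10326227 to 10328944), was at 94.4 FPKM (36.8 to 152) induced and 101 FPKM (39.8 to 162) uninduced. Its log2 difference was -0.094, and its locus span is listed for no other gene.

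The members that encode iron-dependent hydroxylases and demethylases also had overlapping intervals. P4HA1, a catalytic subunit of the enzyme that hydroxylates proline in collagen (chromosome 10, 74766975 to 74856732), was at 108 FPKM (51.5 to 165) induced and 116 FPKM (56.7 to 175) uninduced, a log2 difference of -0.095. These were the narrowest intervals of the set, with an upper bound 52.5% above the induced value and 51.0% above the uninduced value, and the bounds allow ratios between 0.294 and 2.91. KDM3A, a histone demethylase (chromosome 2, 86667770 to 86719839), was at 16.9 FPKM (4.98 to 28.8) induced and 11.5 FPKM (2.18 to 20.8) uninduced, a log2 difference of 0.52. EGLN3, the oxygen-sensing hydroxylase that is itself a hypoxia target (chromosome 14, 34393437 to 34931980), was listed at 0 induced and at 0.0201 FPKM (0 to 1.07) uninduced. Both columns thus placed EGLN3 under the filter, and no fold is given. Its span is also listed for SPTSSA, annotated as overlapping EGLN3 on the same strand, at 16.5 FPKM induced and 23.2 FPKM uninduced.

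BNIP3 had the lowest log2 difference among the kept members as deposited, while CA9 was lower with equal sums (-0.58, against -0.52 for BNIP3) and CA9 and ANKRD37 were after quantile normalization (-0.96 and -0.62, against -0.50). This mitochondrial protein, which promotes removal of mitochondria by autophagy (chromosome 10, 133781578 to 133795435), was at 85.1 FPKM (interval 33.5 to 137) induced and 140 FPKM (65.0 to 215) uninduced. The log2 difference was -0.71, with only 11.5% of kept genes lower, and the interval of the FPKM difference was -146 to 36.2. Genes of like abundance were also lower: the median log2 difference was -0.34 over the 774 kept genes with a mean between 100 and 300 FPKM. BNIP3 lay below this median, while HIF1A and P4HA1, of the same class, lay above it. VEGFA, ADM, NDRG1 and KDM3A also lay above the median of their own class of mean FPKM, and CA9 and ANKRD37 below theirs. NDRG1, a cytoplasmic stress-response protein known to be induced by iron chelators and hypoxia (chromosome 8, 134249414 to 134314265), was at 21.6 FPKM (2.59 to 40.5) induced and 18.5 FPKM (2.10 to 35.0) uninduced. The NDRG1 log2 difference was 0.21, and no other gene is listed for its locus span.

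CA9 and ANKRD37, which rise steeply under hypoxia in many cell types, were low in both columns. CA9, a carbonic anhydrase of the cell surface that acidifies the space around the cell (chromosome 9, 35658301 to 35681156), was at 0.803 FPKM (interval 0 to 3.91) induced and 1.90 FPKM (0 to 10.9) uninduced. It passed the filter through the uninduced column alone. ANKRD37, a small ankyrin-repeat protein (chromosome 4, 186317175 to 186347139), was at 3.18 FPKM (0 to 13.4) induced and 4.39 FPKM (0 to 16.6) uninduced. Their log2 differences were -0.69 for CA9 and -0.37 for ANKRD37, and the lower bound was 0 in both columns for both genes. The CA9 span is shared with ARHGEF39, which overlaps CA9 on the opposite strand and was at 3.61 FPKM induced and 8.10 FPKM uninduced, and the ANKRD37 span with UFSP2, also on the opposite strand, at 25.6 FPKM induced and 27.0 FPKM uninduced. Reads of these overlapping pairs cannot be assigned to a strand.

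**Figure D3:**
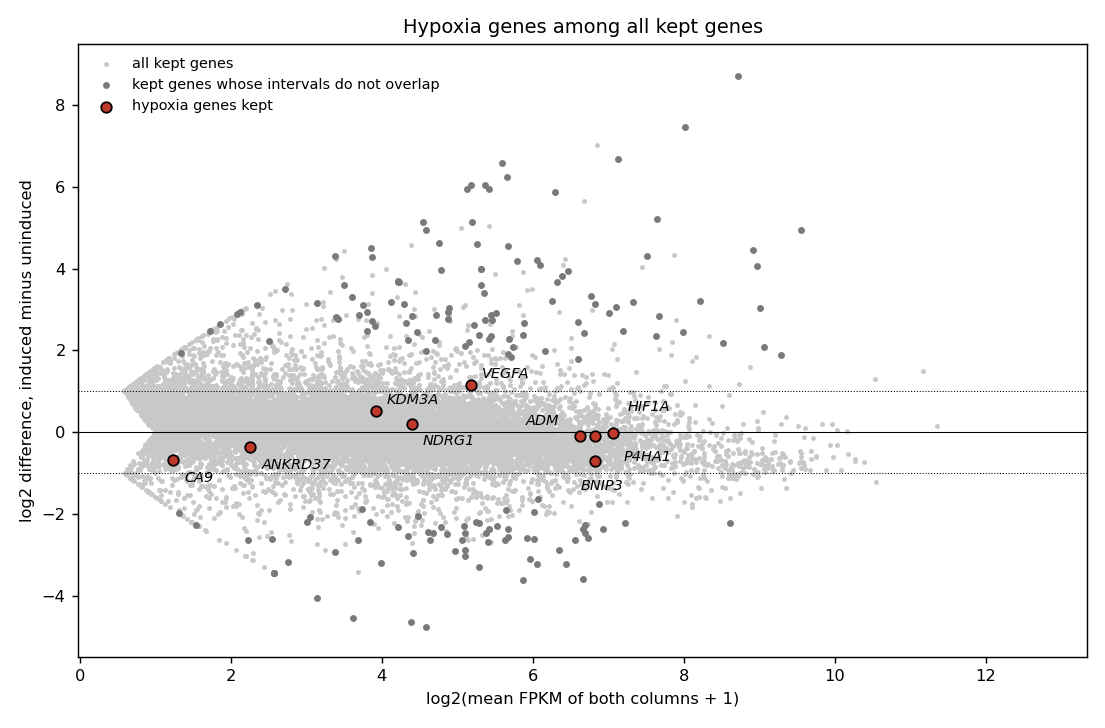
Log2 difference, induced minus uninduced, against log2 of the mean FPKM of both columns plus 1, for 14319 kept genes (light grey), those whose intervals do not overlap (dark grey) and the 9 kept members (red). Dotted lines mark 2-fold differences, and 1 kept gene lies outside the plotted range. VEGFA alone among the members lies above the upper dotted line, and none lies among the dark grey points.

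The intervals limit what these columns could show. Among all kept genes that rose or fell, the smallest log2 difference was 1.65 in size, which exceeds the 1.15 of VEGFA. Over all kept genes the median excess of the upper bound over the value was 99.97% induced and 100.6% uninduced. Among the kept members this excess ran from 52.5% (P4HA1) to 388% (CA9) induced and from 51.0% (P4HA1) to 476% (CA9) uninduced. An overlap of intervals therefore does not show that a member stayed the same.

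The direction of the small differences depended on how the 2 columns were put on 1 scale. The FPKM sums were 482743 induced and 553536 uninduced, and with both scaled to equal sums the kept genes had a median of 0.23. HIF1A, ADM and P4HA1 were then above 0, at 0.17, 0.10 and 0.10, and after quantile normalization at 0.19, 0.15 and 0.15. Set against the median of all kept genes, the median of the members was -0.15 as deposited, -0.13 with equal sums and 0.18 after quantile normalization. VEGFA, KDM3A and NDRG1 stayed above 0 and BNIP3, CA9 and ANKRD37 below 0 in all 3 scalings.

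**Figure D4:**
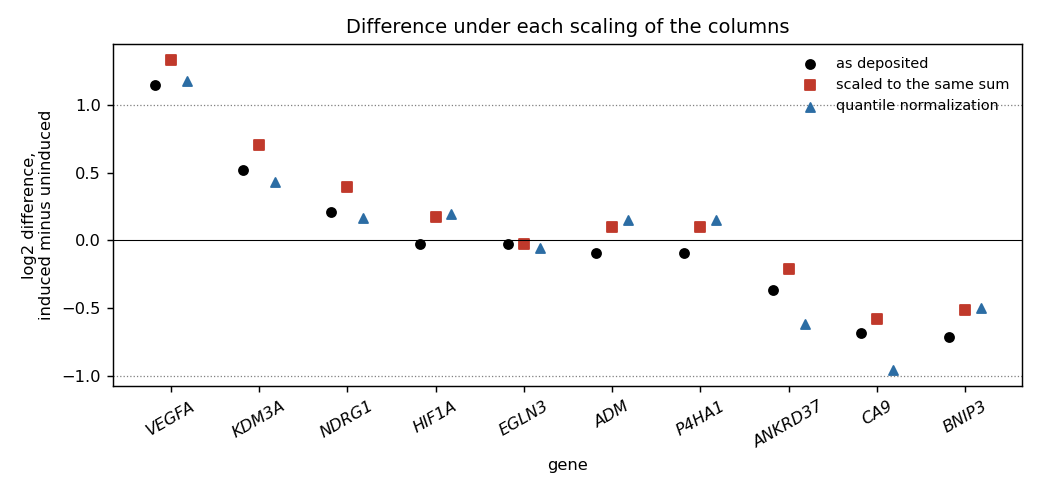
Log2 difference, induced minus uninduced, of each member with the columns as deposited, scaled to the same FPKM sum and quantile normalized. Dotted lines mark 2-fold differences. The signs of HIF1A, ADM and P4HA1 depend on the scaling, and VEGFA lies above 1 in all 3.

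Most of the listed partners and regulators of HIF1A were expressed, and none of those listed rose or fell. Of the HIF subunits 4 of 5 were kept, 0 rose and 0 fell, and the median log2 difference was -0.25 (-0.063 with equal sums). EPAS1, the alternative oxygen-regulated subunit, was at 40.2 FPKM (interval 18.3 to 62.1) induced and 49.8 FPKM (22.8 to 76.9) uninduced. ARNT, the constant partner subunit, was at 16.1 FPKM induced and 18.6 FPKM uninduced, and HIF3A was listed at 0 in both. The subunit ARNT2 was at 0.301 FPKM induced and 1.96 FPKM uninduced, a log2 difference of -1.19. It passed the filter through the uninduced column alone. Of the oxygen-sensing and degradation genes 11 of 12 were kept, 0 rose and 0 fell, and the median was -0.052 (0.14 with equal sums). The EGLN prolyl hydroxylases present were EGLN1, at 28.1 FPKM induced and 29.1 FPKM uninduced, and EGLN2, at 32.6 FPKM induced and 37.5 FPKM uninduced. P4HTM, of the same list, was at 40.5 FPKM (0 to 106) induced and 19.9 FPKM (0 to 63.4) uninduced. Its log2 difference of 0.99 was the largest of that list, and its intervals overlapped. HIF1AN, the asparagine hydroxylase that blocks HIF activity, was at 26.02 FPKM induced and 26.1 FPKM uninduced. VHL was at 23.9 FPKM induced and 17.4 FPKM uninduced. CITED2, a hypoxia-induced antagonist of HIF cofactors, was far more abundant, at 288 FPKM (138 to 438) induced and 307 FPKM (147 to 467) uninduced. PKM, a pyruvate kinase that can act as a HIF1A cofactor, was at 683 FPKM induced and 1042 FPKM uninduced. HSP90AA1, a chaperone that holds HIF1A, was at 208 FPKM (87.4 to 328) induced and 537 FPKM (177 to 897) uninduced, also with overlapping intervals.

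Beside VEGFA, none of its relatives rose or fell, and their differences had different signs. VEGFC, a growth factor for lymphatic vessels, was at 33.0 FPKM (interval 12.1 to 53.9) induced and 102 FPKM (48.5 to 155) uninduced, a log2 difference of -1.60. Its intervals overlapped slightly, and the interval of the difference, -126 to -11.6 FPKM, excluded 0. VEGFA and VEGFC thus stood in opposite order, with VEGFA the higher of the pair induced and VEGFC the higher uninduced, though the induced intervals of the pair overlap. VEGFB was at 75.8 FPKM induced and 69.4 FPKM uninduced, and PGF, another ligand of the family, at 4.50 FPKM induced and 1.37 FPKM uninduced, a log2 difference of 1.22. Among the receptors FLT1 was at 94.0 FPKM (36.1 to 152) induced and 99.4 FPKM (45.7 to 153) uninduced, and NRP1 at 232 FPKM induced and 159 FPKM uninduced. KDR and FLT4, which carry most VEGF signals in vessels, were listed at 0 in both columns. The receptor for adrenomedullin was near or under the filter: CALCRL was at 1.97 FPKM induced and 1.05 FPKM uninduced, RAMP2 at 0.526 FPKM induced and 0.552 FPKM uninduced, and RAMP3 was listed at 0 in both.

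Close relatives of the members were expressed at levels from abundant to low. None of the 7 kept paralogs rose or fell, and their median was 0.043. BNIP3L, a second mitophagy receptor, was at 51.1 FPKM (interval 16.2 to 85.9) induced and 69.3 FPKM (29.01 to 110) uninduced. In the same mitophagy list 0 of 6 rose or fell. Its autophagy receptor SQSTM1 was at 298 FPKM (0 to 637) induced and 155 FPKM (0 to 341) uninduced. BECN1 was at 62.3 FPKM (0 to 128) induced and 79.4 FPKM (0 to 165) uninduced. P4HA2 was at 106 FPKM induced and 103 FPKM uninduced, close to P4HA1, while P4HA3 was at 2.23 FPKM induced and 2.35 FPKM uninduced. KDM3B was at 19.0 FPKM induced and 16.8 FPKM uninduced, and CA12 at 2.51 FPKM induced and 3.30 FPKM uninduced. In the collagen hydroxylation list, to which P4HA1 belongs, 0 of 10 rose or fell, 5 lay above and 5 below 0, and P4HB, the partner subunit of P4HA1, was at 548 FPKM induced and 457 FPKM uninduced.

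The JmjC and TET enzymes, which like KDM3A need iron and 2-oxoglutarate to demethylate chromatin, lay above 0 in 15 of 15 listed cases, KDM3A among them, with 0 that rose. The count rests on which enzymes were listed: JMJD6, also a JmjC oxygenase but listed with the HIF cofactors, was at 17.9 FPKM induced and 22.8 FPKM uninduced, a log2 difference of -0.34. It also includes TET1, which passed the filter through the induced column alone, at 1.86 FPKM induced and 0.486 FPKM uninduced. The count was 15 with equal sums and 14 after quantile normalization. Their median was 0.52, beside 0.054 for all kept genes. By the mean of both columns the most abundant were KDM5C, at 52.1 FPKM (interval 9.61 to 94.5) induced and 31.4 FPKM (7.95 to 54.9) uninduced, and KDM2A, at 30.01 FPKM induced and 21.4 FPKM uninduced. At least 2-fold higher was 1 of the 15, beside 9.20% of all kept genes. This was KDM5B, at 31.6 FPKM (13.3 to 49.9) induced and 14.8 FPKM (3.88 to 25.7) uninduced. Genes of low abundance were higher as a class in the deposited values: of the 7291 kept genes with a mean between 3 and 30 FPKM 58.0% lay above 0, with a median of 0.11.

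A wider list of 50 other genes known to respond to hypoxia showed no common direction. Of these 46 were kept, 0 rose and 0 fell, 28 lay above and 18 below 0, and the median was 0.046 beside 0.054 for all kept genes. At least 2-fold differences were seen for 5 higher and 5 lower, beside 9.20% higher and 6.03% lower over all kept genes. With a mean of at least 5 FPKM 3 were as far higher and 5 as far lower, and with a pseudocount of 5 FPKM 1 and 4 were. The higher ones were VLDLR, EDN1, MXI1, DDIT4 and NDUFA4L2, of which EDN1 and NDUFA4L2 passed the filter through the induced column alone, and the lower ones included PLAUR, TFRC, PLOD2 and GBE1. By the interval of the difference 1 was higher, the lipoprotein receptor VLDLR, at 15.2 FPKM (interval 2.81 to 27.5) induced and 1.63 FPKM (0 to 3.71) uninduced. By the same criterion 3 were lower, PLAUR and TFRC among them. Over all kept genes 1.26% were higher and 1.11% lower by it. PLAUR, the urokinase receptor, was at 30.4 FPKM (6.37 to 54.5) induced and 107 FPKM (45.1 to 169) uninduced. SLC2A1, the glucose transporter often used as a hypoxia marker, was at 139 FPKM (51.3 to 226) induced and 86.1 FPKM (27.96 to 144) uninduced, and DDIT4, a stress-induced inhibitor of mTOR, at 9.28 FPKM induced and 2.91 FPKM uninduced, both with overlapping intervals.

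Glycolytic enzymes and the lactate transporter SLC16A3, many of them HIF targets, were lower in all 11 cases as deposited, with equal sums and after quantile normalization, and 0 fell. Their median was -0.72, or -0.42 after quantile normalization, with GAPDH at 743 FPKM induced and 1421 FPKM uninduced and ALDOA at 513 FPKM induced and 847 FPKM uninduced. The 215 kept genes with a mean of at least 300 FPKM had a median of -0.68, but not all 11 were in that class. GPI, PGAM1 and SLC16A3 had a mean between 100 and 300 FPKM, a class with a median of -0.34. PFKL and PFKP had one between 30 and 100 FPKM, a class with a median of -0.13. Each of the 11 lay below the median of its own class. Of 7 iron-response genes 0 rose and 1 fell, beside 0.726% and 0.454% of all kept genes, and with equal sums 1 rose and 1 fell. The one that fell as deposited was ACO1, an aconitase that also binds iron-responsive elements when iron is low, at 6.33 FPKM (1.29 to 11.4) induced and 54.5 FPKM (26.3 to 82.7) uninduced. TFRC, the transferrin receptor, a target of both HIF and the iron-response proteins, was at 27.1 FPKM (8.85 to 45.3) induced and 72.8 FPKM (35.5 to 110) uninduced, a log2 difference of -1.40 whose difference interval excluded 0. SLC40A1, the iron exporter, was at 15.0 FPKM (3.37 to 26.6) induced and 1.33 FPKM (0 to 3.77) uninduced, also outside 0 by that criterion. By it 1 of the 7 was higher and 2 were lower, beside 1.26% and 1.11% of all kept genes.

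**Figure D5:**
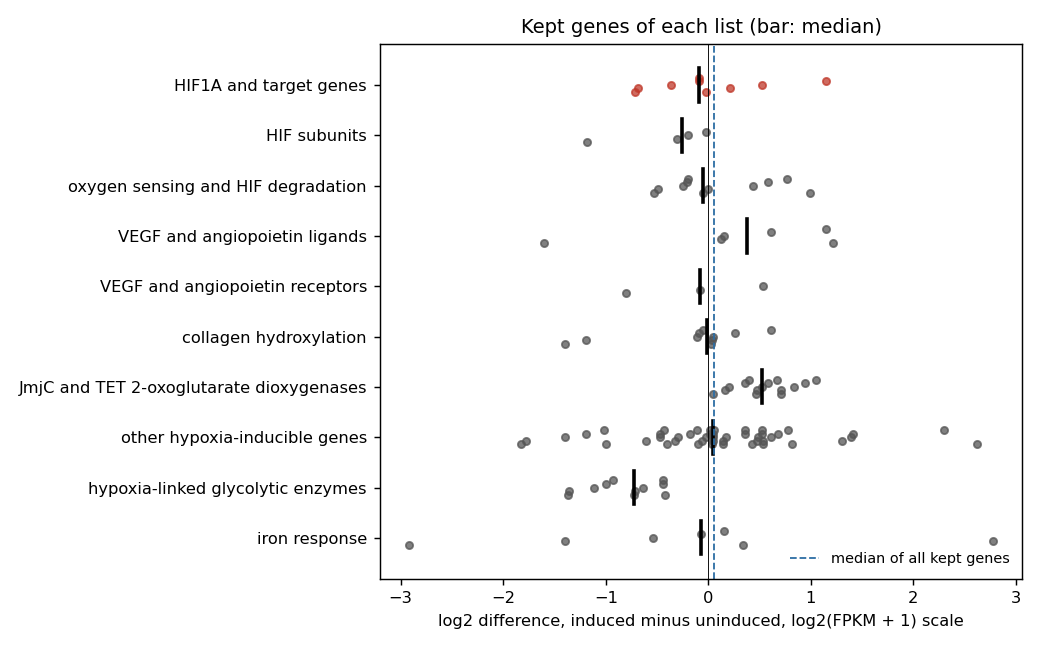
Log2 differences, induced minus uninduced, of the kept genes of 10 lists (points, 1 per gene) with the median of each list (bar) and the median of all kept genes (dashed line, 0.054). The medians of HIF1A and its targets, of the HIF subunits and of the oxygen-sensing genes lie near or slightly left of the line, glycolytic enzymes at -0.72 and the JmjC and TET enzymes at 0.52.

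The labels and the cell type were checked in the same columns. FOXA2 was at 104 FPKM (interval 50.2 to 158) induced and 4.82 FPKM (0.526 to 9.12) uninduced, and its intervals did not overlap. All 10 fibroblast markers were kept, 4 above and 6 below 0, with 0 that rose and 0 that fell. Their median log2 difference was -0.46, or -0.077 after quantile normalization. VIM was at 905 FPKM induced and 2098 FPKM uninduced, and COL1A2 at 519 FPKM induced and 756 FPKM uninduced. At least 2-fold higher were COL3A1, at 445 FPKM induced and 125 FPKM uninduced, and DCN, at 122 FPKM induced and 58.1 FPKM uninduced. As far lower were 3 markers, VIM among them. Of the endothelial markers 0 of 8 were kept, with summed levels of 0.522 FPKM induced and 0.724 FPKM uninduced, and PECAM1, CDH5 and KDR were listed at 0 in both columns. Of the other markers 1 of 7 epithelial, 2 of 7 immune and 2 of 8 liver and endoderm genes were kept, with summed levels of 13.2, 3.61 and 3.04 FPKM induced and 8.19, 1.39 and 1.30 FPKM uninduced. Fewer cells expressing a gene and less of its RNA per cell cannot be told apart in such bulk values.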

How the data were processed

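The authors' deposited table gives FPKM with lower and upper confidence bounds per gene, per the file headers, 1 value per group. The submitters' processing notes name TopHat and the build hg19. The quantifier, versions, confidence level and any combining of both samples in a column were not given in the sources used here, and depth is unknown. Column names gave the group, and 3 further value columns were not used. Locus starts were shifted to count from 1. The limma fit foreseen for values per sample could not be run. Log2 differences used a pseudocount of 1 FPKM, which understates changes of low genes, and a filter of 1 FPKM in at least 1 column; the 3 kept genes with malformed bounds were not called. The code that applies the criterion was tested on simulated data with known folds, which checks the code and not the deposited bounds. The members, the 19 lists and the tests were chosen with earlier results of these data known. The rule for named genes took all members, FOXA2, the called genes of each list or, with none, its 2 most abundant, of which not all are named, and any gene of the HIF subunit, oxygen-sensing, receptor and paralog lists. Named outside it, after their values were seen, were PGF, JMJD6, KDM5B, TET1, COL3A1, DCN, SLC16A3, GPI, PGAM1, PFKL, PFKP, VLDLR, EDN1, MXI1, DDIT4, NDUFA4L2, PLAUR, TFRC, CITED2, BNIP3L, PLOD2, GBE1, SLC2A1, SLC40A1, PECAM1 and CDH5, and the genes that share a locus span with a member. The values of 1 listed gene are not reported here. Strand and overlap came from GENCODE 29 by Ensembl ID, and promoters from RefSeq on GRCh38.p14, whose coordinates are separate from the hg19 loci. Python 3.11.15, numpy 2.4.6 and pandas 2.3.3 were used.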

Additional observations from a re-analysis of the deposited data

How the results depend on the processing

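No paired analysis was possible because each group has a single deposited FPKM per gene. For that reason neither a replicate block nor leaving out a sample was run. The count of members called was 0 under every alternative run: pseudocounts of 0.1 and 5, no filter, a mean of at least 5 FPKM, equal sums, quantile normalization, the interval of the difference and summed rows of a symbol. With a pseudocount of 0.1, 1 member (CA9) was at least 2-fold lower. Restricted to the 4 members alone on their locus span, an alternative chosen after seeing the data, 0 were at least 2-fold higher, and their median was 0.056. The median of the members also changed sign with equal sums (0.10) and after quantile normalization (0.15). With equal sums HIF1A was at 0.17, ADM at 0.10 and P4HA1 at 0.10, and the medians turned positive for oxygen sensing (0.14), HIF cofactors (0.10), VEGF receptors (0.12), collagen hydroxylation (0.16) and iron response (0.12). After quantile normalization HIF1A was at 0.19, ADM at 0.15 and P4HA1 at 0.15, and the medians turned positive for HIF cofactors (0.20), VEGF receptors (0.16), collagen hydroxylation (0.20) and iron response (0.11). With a mean of at least 5 FPKM those of VEGF receptors (0.23) and collagen hydroxylation (0.025) did so. The cause of these changes was not tested. Differences smaller than the deposited intervals were not detectable in these columns.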
